A study of Mus musculus with 6 samples.

Results

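The genes described here are 10 receptors of the TNF receptor superfamily that feed NF-kB in T cells, chosen by name from 55573 genes counted in each library: Tnfrsf4 (OX40), Tnfrsf9 (4-1BB), Tnfrsf18 (GITR), Tnfrsf1a (TNFR1), Tnfrsf1b (TNFR2), Tnfrsf25 (DR3), Tnfrsf11a (RANK), Cd27, Ltbr and Tnfrsf14 (HVEM). They were measured by RNA sequencing in mouse regulatory T cells (Tregs), a suppressive kind of CD4 T cell, sorted from spleen and rested in medium before lysis. There were 3 libraries of wild-type Tregs and 3 of Nfkb2-/- Tregs, the latter labelled as lacking Nfkb2, which encodes the NF-kB precursor p100 that is cut to p52. Both genotypes came from bi-parental bone marrow chimeras, in which mixed donor marrow replaces the host's blood-forming cells, and both were otherwise untreated. Whether libraries of the genotypes shared hosts was not tested. The labels call the libraries biological repeats and give no age, sex or host strain, so p-values measure the spread between these samples.

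These receptors sit on the T cell surface and bind ligands of the TNF superfamily, most of which are carried by other cells such as antigen-presenting cells. Most of them recruit TRAF adaptors and cIAP ubiquitin ligases, which switch on the IKK kinases and the canonical NF-kB subunits, while Tnfrsf1a and Tnfrsf25 carry a death domain and signal first through TRADD. Several, with Ltbr as the classical example, also release the kinase NIK (Map3k14) from degradation, which drives processing of p100, the Nfkb2 product, to p52. In Tregs, Tnfrsf4, Tnfrsf9, Tnfrsf18 and Tnfrsf1b are known for high surface levels, and several of these receptor genes are themselves NF-kB targets.

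The 10 genes lie in 3 places of the mouse genome (GRCm38). Chromosome 4 holds 6 of them, within 10.8 Mb: Tnfrsf1b (145213463 to 145246870, minus strand), Tnfrsf9 (150914562 to 150946102, plus), Tnfrsf25 (152115934 to 152120119, plus), Tnfrsf14 (154921933 to 154928563, minus), Tnfrsf4 (156013843 to 156016612, plus) and Tnfrsf18 (156026164 to 156028895, plus). Tnfrsf4 and Tnfrsf18 are neighbours, 9.55 kb apart with no protein-coding gene between them. Chromosome 6 holds 3, Cd27 (125232622 to 125237010, minus), Ltbr (125306571 to 125313885, minus) and Tnfrsf1a (125349362 to 125362484, plus), and Tnfrsf11a lies on chromosome 1 (105780718 to 105847981, plus). The libraries carry no strand, so reads shared with overlapping genes cannot be told apart: the antisense gene Gm16008 covers 27.2% of the exon length of Tnfrsf18 and the miRNA gene Mir8113 5.54% of that of Cd27. Camta1 and Vamp1 overlap Tnfrsf9 and Cd27 on the other strand without shared exon bases.

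Promoter windows of the receptors, from 250 bases before to 50 bases after each RefSeq transcript start (GRCm38.p6), were searched for NF-kB motifs because the deleted gene encodes an NF-kB subunit. All 10 receptors had at least 1 window and together 12. The NF-kB consensus, 10 letters searched on both strands, was found in 1 window each of Tnfrsf9 and Tnfrsf25, against 8.46% of 32851 promoter windows of all genes. Both windows of Tnfrsf9, the receptor that rose in Nfkb2-/- Tregs, are shown with the matching window of Tnfrsf25, a receptor whose level was close in the genotypes. The other Tnfrsf25 window (chr4:152115684-152115983) held no match and is not shown. Capitals mark the motif matches, and each sequence is written 5′ to 3′ along its gene.
Tnfrsf9, chr4:150919905-150920204, plus strand: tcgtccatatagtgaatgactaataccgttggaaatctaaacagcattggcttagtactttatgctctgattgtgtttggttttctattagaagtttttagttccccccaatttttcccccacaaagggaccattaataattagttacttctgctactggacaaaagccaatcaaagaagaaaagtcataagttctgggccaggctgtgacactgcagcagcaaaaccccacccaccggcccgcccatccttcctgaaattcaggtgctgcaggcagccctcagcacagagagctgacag
Tnfrsf9, chr4:150927749-150928048, plus strand: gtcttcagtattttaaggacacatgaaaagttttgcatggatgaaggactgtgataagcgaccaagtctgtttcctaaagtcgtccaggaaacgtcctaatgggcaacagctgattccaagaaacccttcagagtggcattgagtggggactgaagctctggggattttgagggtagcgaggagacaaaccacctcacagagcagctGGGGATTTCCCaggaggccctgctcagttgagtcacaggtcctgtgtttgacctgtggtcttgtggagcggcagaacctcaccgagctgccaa
Tnfrsf25, chr4:152116093-152116392, plus strand: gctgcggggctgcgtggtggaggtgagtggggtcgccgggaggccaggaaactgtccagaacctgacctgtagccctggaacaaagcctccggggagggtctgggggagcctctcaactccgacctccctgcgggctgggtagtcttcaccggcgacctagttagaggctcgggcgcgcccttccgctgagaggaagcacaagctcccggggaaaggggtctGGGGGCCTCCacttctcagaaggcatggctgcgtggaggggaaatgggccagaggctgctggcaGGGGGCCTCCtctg

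In the downstream window of Tnfrsf9 the matches GGGGATTTCC and GGGATTTCCC overlap, beginning 43 and 42 bases before the transcript start. The same window holds the AP-1 core TGANTCA, as TGAGTCA 15 bases before the start, which 7.81% of all windows hold on either strand and none of the other 11 receptor windows did. The Tnfrsf25 window shown holds GGGGGCCTCC at both places, 28 bases before and 36 bases after the start. The core TATAAA, searched on both strands, was in 0 of the 12 windows, against 13.6% of all windows. These are matches of letters in 300 bases and no binding was measured.

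Library totals ran from 12005273 to 17278521 counts, and levels below are CPM, the count relative to the TMM-scaled size of its library. Nfkb2 was at 269, 324 and 271 CPM in Nfkb2-/- replicates 1 to 3 and at 558, 545 and 556 CPM in wild type, lower but still present (log2 fold change -0.94, edgeR adjusted p = 0.0203). The call was lost without each Nfkb2-/- library (edgeR adjusted p = 0.118 to 0.176), without wild-type replicates 2 and 3 (0.0722 and 0.0567) and with the Y-linked covariate (0.502), and counts over the whole gene do not resolve deleted exons. The Treg and T cell markers Foxp3, Il2ra, Ctla4, Ikzf2, Cd3d, Cd3e, Cd3g and Cd4 were present in each library and summed to 4304 to 4781 CPM in Nfkb2-/- and 3363 to 5285 CPM in wild type. None of the 8 was called in the main edgeR fit. Without overlap, Il2ra was lower (439.6 ± 49.0 against 574 ± 56.2 CPM) and Ikzf2 higher (779 ± 52.2 against 497 ± 54.4 CPM, SD, n = 3 each) in Nfkb2-/-. Such separation held for 20.6% of all genes tested. DESeq2, edgeR with no count filter and edgeR without wild-type replicate 1 called Ikzf2 higher. With the B cell marker level as a covariate, edgeR called Cd3g and Cd4 higher, beside 1201 of all genes higher and 1500 lower. Xist ran from 592 to 883 CPM in Nfkb2-/- against 1.94 to 16.5 CPM in wild type, and 4 Y-linked genes summed to 40.0, 138 and 275 CPM in Nfkb2-/- replicates 1 to 3 against 465 to 498 CPM. Each Nfkb2-/- library thus held both Xist and Y-linked RNA in quantity, and the labels give no donor sex. For Nfkb2 and for each receptor, genotype and these sex-linked differences cannot be told apart. The summed level of 19 B cell markers was 74.1 to 115 CPM in Nfkb2-/- and 145 to 470.2 CPM in wild type, with each marker counted in at least 1 library. These ranges do not overlap, so for each receptor genotype and the B cell marker level cannot be told apart either. The summed levels of markers of CD8 T and NK cells (28.7 to 38.4 against 21.6 to 36.6 CPM), myeloid cells (21.5 to 43.9 against 15.0 to 88.4 CPM), red cells and platelets (24.1 to 45.3 against 35.1 to 61.5 CPM; Ppbp at 0) and stroma (101 to 166 against 135 to 209.6 CPM; Ccl19 at 0) overlapped between genotypes. Of the 4 tested CD8 T and NK cell markers, Eomes was called higher in Nfkb2-/- (1.60 on the log2 scale; the call was lost without any 1 library other than wild-type replicate 1), and its part in the receptor differences was not tested. Wild-type replicate 1 stood apart: its log2 CPM correlated with those of the other libraries at no more than r = 0.955 across genes, which are not independent, while each other library reached at least 0.986 with another.

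Splenic Tregs held these receptors at very different levels. Per length, as counts per kilobase of exon scaled to a fixed library sum, Tnfrsf4 was the highest of the 10 in each library, at 2151 ± 512 in wild type and 3030 ± 249 in Nfkb2-/- (SD, n = 3 each). Its mean over the 6 libraries was above 99.7% of the tested genes. Tnfrsf1b followed at 1098 ± 240 and 1301 ± 131, below Tnfrsf4 in all 6 libraries without overlap.

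Cd27 and Tnfrsf9 came next in wild type, at 562 ± 49.6 and 521 ± 21.9 on the same per-length scale, with overlapping values. In Nfkb2-/- the order of this pair was reversed, with Tnfrsf9 at 1100 ± 29.2 above Cd27 at 521 ± 33.0 without overlap. Tnfrsf18 was at 370 ± 49.3 in wild type, below Tnfrsf9 without overlap, and at 492 ± 24.0 in Nfkb2-/-, where it overlapped Cd27. Tnfrsf25 (119 ± 28.7 in wild type, 118 ± 7.0 in Nfkb2-/-) and Tnfrsf14 (111 ± 58.6 and 75.2 ± 15.4) overlapped in wild type only, and Tnfrsf1a was below both at 51.6 ± 3.34 and 36.5 ± 3.13.

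Tnfrsf11a and Ltbr were near the limit of detection. Ltbr, known from stromal and myeloid cells, had 2 to 6 counts per library, 11 over the Nfkb2-/- libraries and 9 over wild type, a ratio of 1.37 with an exact 95% counting interval of 0.514 to 3.73. It did not pass the count filter and has no test. The per-length levels of Tnfrsf11a (0.304 ± 0.0122) and Ltbr (0.316 ± 0.143) overlapped in wild type, while in Nfkb2-/- Tnfrsf11a, at 1.06 ± 0.26, was above Ltbr, at 0.405 ± 0.197, in all 3 libraries. Counting intervals cover counting error only.

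**Figure D1:**
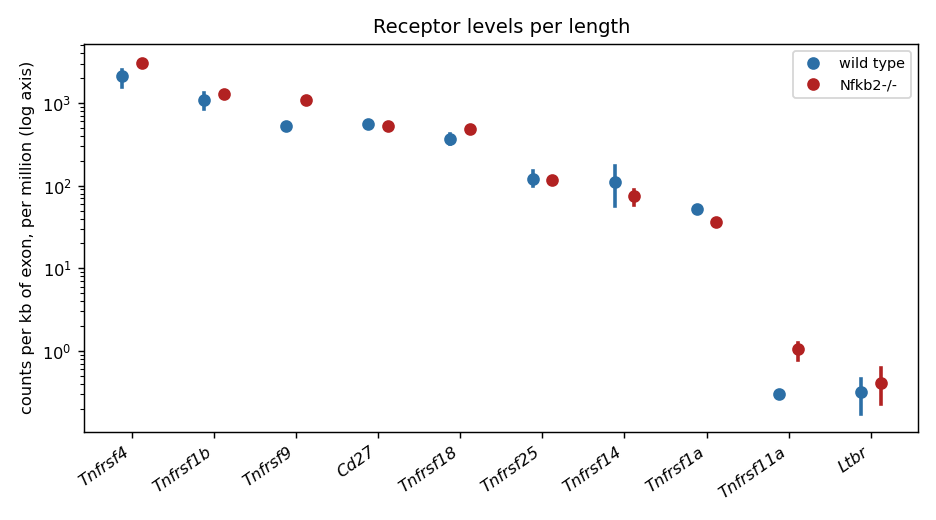
Receptor levels per length (counts per kilobase of merged exon, scaled to 1 fixed sum per library, log axis) by genotype; dots are means of 3 libraries and bars run from the lowest to the highest library. Tnfrsf4 is the highest receptor in both genotypes, and Tnfrsf11a and Ltbr lie far below Tnfrsf1a, the next lowest.

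Of the 10 receptors 9 passed the count filter, and 1, Tnfrsf9, rose in Nfkb2-/- Tregs while 0 fell (quasi-likelihood test of edgeR, p adjusted by Benjamini-Hochberg over 13347 genes, threshold 0.05). Of all genes tested, 1.01% were called higher, 0.405% lower and 1.42% in either direction, so 1 of 9 is a description of a short list chosen with earlier results known. An unadjusted p under 0.05 was found for 3 of the 9, Tnfrsf9, Tnfrsf11a and Tnfrsf1a, whose CPM ranges in the genotypes were also separate, which held for 20.6% of all genes tested. An unadjusted p under 0.05 was found for 13.6% of all genes tested, and Tnfrsf11a passed the filter only through the group where it was high. The median log2 fold change of the 9 was 0.20, against -0.03 over all genes tested. In bulk RNA a difference in the share of cells that carry a transcript cannot be told apart from one in the amount per cell.

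Among the costimulatory receptors, Tnfrsf9, an inducible receptor of activated T cells, stood at 831, 882 and 919 CPM in Nfkb2-/- replicates 1 to 3 and at 392, 419 and 457 CPM in wild-type replicates 1 to 3. Each Nfkb2-/- library was above each wild-type library, and the groups were narrow, with coefficients of variation of 5.06% and 7.67%. The difference was 2.08-fold (95% interval 1.67 to 2.59), or 1.05 on the log2 scale with an SE of 0.137 (edgeR adjusted p = 0.0157). By replicate number the log2 ratios of Nfkb2-/- over wild type were 1.08, 1.07 and 1.01.

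The size of the Tnfrsf9 difference moved little between settings, but its call did not hold in each. Its log2 fold change ran from 1.00 to 1.11 with each library left out in turn. The edgeR adjusted p was 0.0784, 0.12 and 0.126 without Nfkb2-/- replicates 1, 2 and 3, 0.084 without wild-type replicate 2, and 0.332 once the Y-linked level entered the fit, where the log2 fold change was 1.16. It was 0.000416 without wild-type replicate 1. With the B cell marker level as a covariate the log2 fold change was 1.21 (edgeR adjusted p = 0.0105). Xist, the Y-linked genes and the B cell markers separated the genotypes in the same libraries. Neither covariate overlaps between the genotypes, so these fits cannot separate the covariate from genotype. The part of these genes in the Tnfrsf9 difference was not tested.

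**Figure D2:**
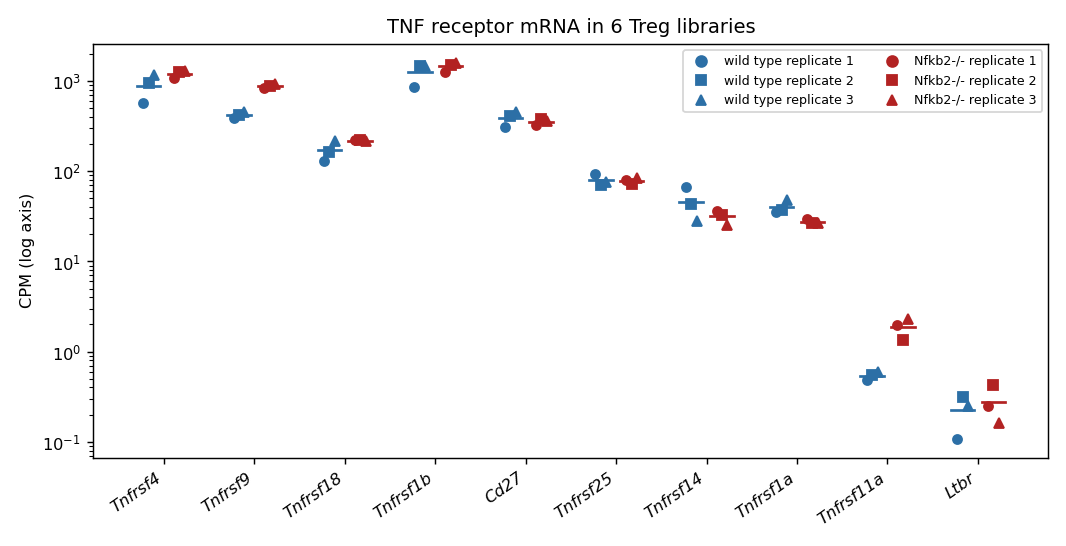
CPM (log axis) of the 10 receptors in each library; blue is wild type, red is Nfkb2-/-, symbols give the replicate and bars the mean of 3. Tnfrsf9 and Tnfrsf11a are higher and Tnfrsf1a lower throughout the Nfkb2-/- libraries, with no overlap, while the other receptors overlap.

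Tnfrsf4, the OX40 receptor that supports T cell survival, was at 1071, 1261 and 1305 CPM in Nfkb2-/- and at 570.0, 945 and 1162 CPM in wild-type replicates 1 to 3. Wild-type replicate 3 lay within the Nfkb2-/- range and replicate 1 far below it. The log2 fold change was 0.44 (95% interval -0.15 to 1.04, edgeR adjusted p = 0.534), and 0.20 without wild-type replicate 1. With the B cell marker level as a covariate it was 1.29 and called (edgeR adjusted p = 0.0296), beside 1.05 (0.0319) for Tnfrsf1b and -1.32 (0.0283) for Tnfrsf14. That fit called 1201 of all genes higher and 1500 lower. Its covariate does not overlap between the genotypes, so the fit cannot separate it from genotype.

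Tnfrsf18, the GITR receptor and a classical Treg marker, was at 223, 220.5 and 214 CPM in Nfkb2-/- and at 131, 164 and 216 CPM in wild type. Replicate 3 of wild type reached the level of the Nfkb2-/- libraries and the other two were below it, giving a log2 fold change of 0.37 (95% interval -0.06 to 0.79, edgeR adjusted p = 0.445), which was 0.21 without wild-type replicate 1 and 0.74 with the B cell covariate. The difference between its libraries was small in Nfkb2-/- (coefficient of variation 2.13%) and large in wild type (25.3%). The neighbouring genes Tnfrsf4 and Tnfrsf18 kept similar proportions, with a ratio of per-length levels of 6.18 ± 0.745 in Nfkb2-/- and 5.76 ± 0.812 in wild type (SD, n = 3 each).

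Cd27, the receptor of CD70, ran from 329.6 to 377 CPM in Nfkb2-/- and from 314 to 458 CPM in wild type, and Tnfrsf25, the receptor of TL1A, from 72.7 to 84.2 and from 70.8 to 92.3 CPM. Both overlapped between genotypes. Their log2 fold changes were -0.15 (95% interval -0.53 to 0.24) and -0.02 (-0.34 to 0.30), so the Tnfrsf25 interval leaves out changes larger than 1.23-fold up or below 0.79-fold.

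The receptors of TNF itself are Tnfrsf1b and Tnfrsf1a. Tnfrsf1b, the TNFR2 receptor of Tregs, was at 1256, 1514 and 1598 CPM in Nfkb2-/- and at 856, 1475 and 1460 CPM in wild type. Of these only replicate 1 stood below the Nfkb2-/- range, and the log2 fold change of 0.20 (95% interval -0.34 to 0.75, edgeR adjusted p = 0.784) was -0.012 without that library.

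Tnfrsf1a, the widely expressed TNFR1 with a death domain, was at 29.6, 27.0 and 26.5 CPM in Nfkb2-/- and at 35.1, 37.0 and 48.3 CPM in wild type. No wild-type library reached down to the Nfkb2-/- range, as for 9.90% of all genes tested, yet the log2 fold change of -0.53 (95% interval -0.91 to -0.16) did not pass the test (edgeR adjusted p = 0.186). Without wild-type replicate 1 it was -0.62 with an adjusted p of 0.0154. The B cell markers were lower in the same Nfkb2-/- libraries and their part in this difference was not tested. The fit with their level as a covariate gave -0.42 (edgeR adjusted p = 0.286). That level does not overlap between the genotypes, so the fit cannot separate it from genotype.

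Tnfrsf11a, the RANK receptor, was scarce. It had 24, 19 and 28 counts in Nfkb2-/- replicates 1 to 3 and 9, 7 and 7 counts in wild type, or 1.99, 1.34 and 2.28 CPM against 0.485, 0.554 and 0.588 CPM. Each Nfkb2-/- library was above each wild-type library, which held for 10.7% of all genes tested. It passed the filter, which asks for about 10 counts in 3 libraries, through the Nfkb2-/- group. The log2 fold change was 1.77 (95% interval 0.90 to 2.64, edgeR adjusted p = 0.0728); the adjusted p was 0.0435 in DESeq2 and 0.0355 in edgeR without wild-type replicate 1.

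Tnfrsf14, the HVEM receptor that also binds the inhibitory partner BTLA, was at 36.6, 32.7 and 25.4 CPM in Nfkb2-/- and at 66.6, 43.4 and 27.8 CPM in wild type. Among these, replicate 1 was the highest and replicate 3 lay inside the Nfkb2-/- range. The log2 fold change was -0.55 (95% interval -1.25 to 0.16, edgeR adjusted p = 0.512), and -0.18 without wild-type replicate 1.

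**Figure D3:**
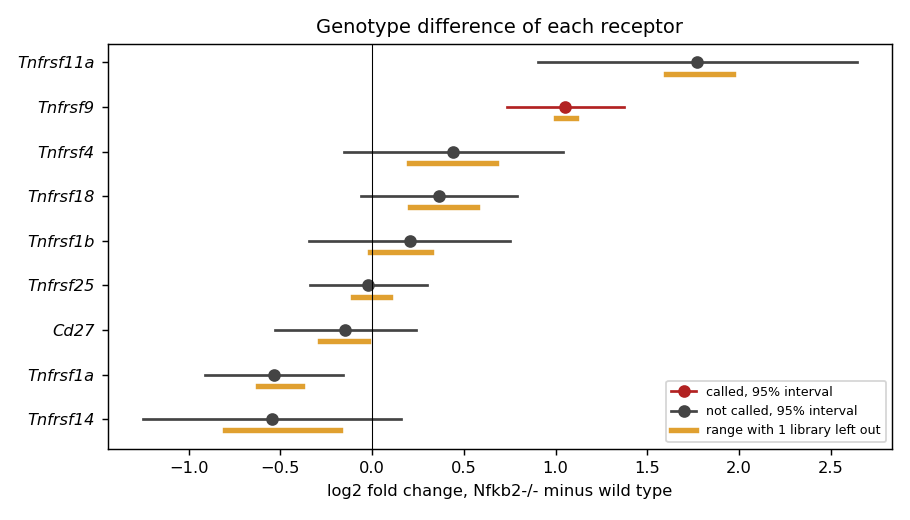
Log2 fold change of the 9 tested receptors, Nfkb2-/- minus wild type, with 95% intervals from the edgeR fit (red: called, grey: not called) and, in yellow, the range when 1 library is left out. The interval of Tnfrsf9 lies between 0.74 and 1.37 and its yellow range is short, while the ranges of Tnfrsf1b and Tnfrsf25 cross 0.

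Wild-type replicate 1 was at an end of the range for most receptors. It was the lowest of the 6 libraries for 6 of the 9 tested receptors and the highest for 2, Tnfrsf14 and Tnfrsf25. Of the 8 Treg and T cell markers it was the lowest for 4 and the highest for 1, Foxp3. The coefficient of variation was larger in wild type than in Nfkb2-/- for 8 of the 9 receptors, all but Tnfrsf11a, and for 7 of the 8 markers. The shares of all genes tested with these traits were not counted, so nothing particular to the receptors is read from these counts. The per-length ratio of Tnfrsf9 to Tnfrsf4 was 0.389, 0.351 and 0.353 in Nfkb2-/- against 0.345, 0.222 and 0.197 in wild type. In wild-type replicate 1 the ratio thus came close to the Nfkb2-/- values. Per length, Tnfrsf4 ran from 1568 to 2524 in wild type, lowest in replicate 1. Tnfrsf9 ran only from 497 to 541 per length, highest in replicate 1, where it was lowest in CPM.

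The genes whose pattern over the 6 libraries was most like that of a receptor were sought among 7934 protein-coding genes averaging 10 CPM or more, by Pearson's r of log2 CPM. For Tnfrsf9 they were Asb2 (r = 0.999), Bhlhe40 (0.995) and Rnpep (0.995), which were also called higher in Nfkb2-/- (by 2.79, 1.88 and 1.15 on the log2 scale, with edgeR adjusted p = 0.000873, 0.00807 and 0.0133). For Tnfrsf4 they were B9d2, Snx3 and Klf4 (r = 0.996 in each), for Tnfrsf18 Dctn3 (0.99), Chrne (0.986) and Ddx19b (0.985), and for Tnfrsf1b Utp4 (0.998) and Fundc2 (0.998), none of them called. The 6 points share the genotype split and wild-type replicate 1, and r is given as a description.

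The ligands of these receptors were mostly scarce in Tregs, and 1 of them rose. Of 10 ligand genes 8 were tested, with 1 higher and 0 lower, against 1.01% higher and 0.405% lower of all genes tested. Their median log2 fold change was 0.34, against -0.03 over all genes tested. Tnfsf15, which encodes TL1A, the ligand of Tnfrsf25, was at 11.2, 16.2 and 16.9 CPM in Nfkb2-/- and at 0.701, 2.45 and 1.18 CPM in wild type. The groups were far apart, by 3.38 on the log2 scale with an SE of 0.434 (edgeR adjusted p = 0.0157), or 10.4-fold with a 95% interval of 5.20 to 20.9. The adjusted p of Tnfsf15 was 0.0698, 0.118 and 0.11 without Nfkb2-/- replicates 1, 2 and 3, 0.0625 without wild-type replicate 3 and 0.259 with the Y-linked covariate. Its receptor Tnfrsf25, in contrast, overlapped between the genotypes, as given above.

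Ltb, a subunit of the Ltbr ligand, was the most abundant ligand per length, at 804 ± 127 in Nfkb2-/- and 672 ± 26.9 in wild type (SD, n = 3 each), a difference of 0.22 on the log2 scale (edgeR adjusted p = 0.632), in cells that held almost no Ltbr. Tnfsf11, the RANK ligand, was at 63.1, 75.1 and 77.3 CPM in Nfkb2-/- and at 16.6, 51.1 and 46.0 CPM in wild type, without overlap but not called (log2 fold change 0.93, edgeR adjusted p = 0.323). Lta, whose product binds the TNF receptors, was at 12.8 ± 0.96 against 19.2 ± 4.00 CPM, also without overlap and not called (-0.58, edgeR adjusted p = 0.234). Without wild-type replicate 1, Tnfsf15 and Tnfsf11 were called higher and Tnf and Lta lower, beside 628 of all genes higher and 606 lower. With the B cell covariate 5 ligands were called higher, Tnfsf4, Tnf, Tnfsf15, Tnfsf11 and Tnfsf14, beside 1201 of all genes higher and 1500 lower. The B cell marker level does not overlap between the genotypes, so that fit cannot separate it from genotype.

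The ligand of Tnfrsf9, Tnfsf9, averaged 4.25 ± 0.298 CPM in Nfkb2-/- against 3.25 ± 1.07 CPM (SD, n = 3 each), and that of Tnfrsf4, Tnfsf4, at 25.7 ± 8.18 and 12.7 ± 7.63 CPM, both overlapping. Tnf was at 19.2 ± 3.01 and 29.2 ± 16.1 CPM and Tnfsf14, the ligand of Tnfrsf14, at 3.07 ± 0.325 and 2.53 ± 1.53 CPM. Cd70, the ligand of Cd27, had 22 counts over the Nfkb2-/- libraries against 1 over wild type, a ratio of 24.6 with an exact 95% counting interval of 3.97 to 1014. Cd70 did not pass the filter. With no count filter edgeR called it higher (edgeR adjusted p = 0.0362), beside 292 of all genes higher and 174 lower. DESeq2 did not call it (DESeq2 adjusted p = 0.0752). Tnfsf18, the ligand of Tnfrsf18, had 0 or 1 count in each library.

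**Figure D4:**
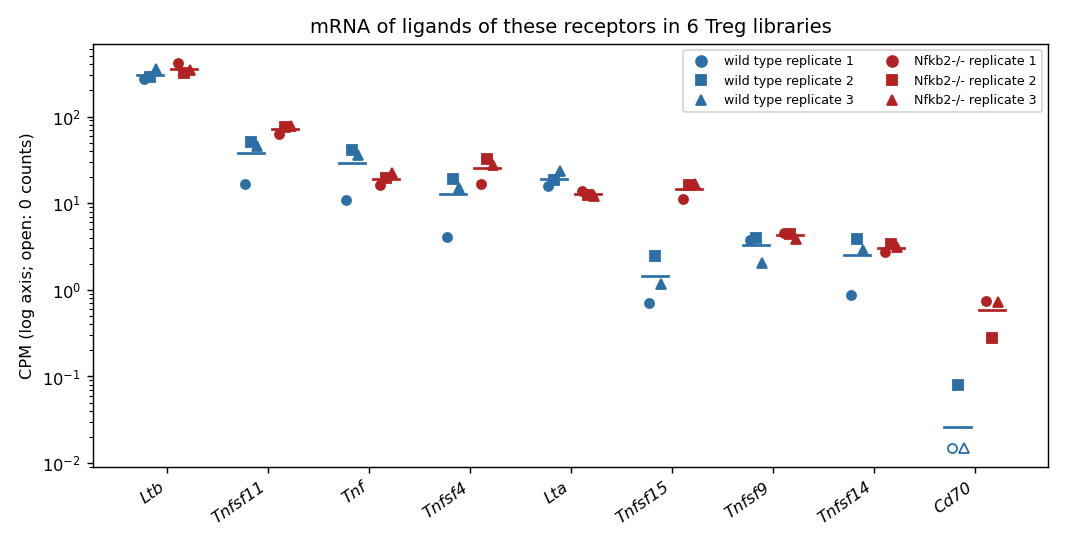
CPM (log axis) of 9 ligand genes in each library, with colours, symbols and mean bars as for the receptors; open symbols mark libraries with 0 counts. Tnfsf15 runs from 11.2 to 16.9 CPM in Nfkb2-/- and from 0.701 to 2.45 CPM in wild type, and Ltb is the most abundant.

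Downstream of the receptors, 1 of 21 adaptor and kinase genes rose and 0 fell, against 1.01% higher and 0.405% lower of all genes tested. Their median log2 fold change was 0.02, against -0.03 over all genes tested. Birc2, which encodes the ubiquitin ligase cIAP1 that TRAF2 brings to these receptors, was at 365, 384 and 342 CPM in Nfkb2-/- and at 135, 196 and 197 CPM in wild type, without overlap (log2 fold change 1.05, SE 0.172, edgeR adjusted p = 0.0319). Its adjusted p was 0.0709 to 0.184 without each of the libraries other than wild-type replicate 1 and 0.528 with the Y-linked covariate. With the replicate number as a block 2 genes were called higher, beside 196 of all genes. The other was Traf3, the adaptor that holds NIK at low levels, at 339, 471 and 435 CPM against 151, 246 and 203 CPM. Its edgeR adjusted p was 0.0592 without the block and 0.0236 with it. Traf3 was also called by DESeq2 and, in edgeR, with no count filter, with the B cell covariate and without wild-type replicate 1. The fit without that library also called Fadd higher and Traf5 lower, beside 628 of all genes higher and 606 lower. The B cell covariate fit also called Ikbkg and Tab1 lower, beside 1201 of all genes higher and 1500 lower. NIK itself, Map3k14, overlapped at 203 ± 20.0 and 223 ± 9.06 CPM (SD, n = 3 each). Traf3, Map3k14, Fadd, Traf5, Ikbkg and Tab1 are named here after their values were seen.

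Among 17 NF-kB subunit and feedback genes 0 rose and 1, the deleted Nfkb2, fell (median log2 fold change 0.01), against 1.01% higher and 0.405% lower of all genes tested. Nfkbie, an inhibitor of NF-kB that NF-kB itself induces, was at 297, 276 and 293 CPM in Nfkb2-/- and at 93.8, 148 and 172 CPM in wild type, without overlap and not called (log2 fold change 1.07, edgeR adjusted p = 0.0608, 0.0507 with the replicate block); it is named after its values were seen. DESeq2 called Nfkbie and Rel higher (adjusted p = 0.000965 and 0.0117), and edgeR called Nfkbie with no count filter (0.00186), with the B cell covariate (0.00561) and without wild-type replicate 1 (0.000676). In the main fit Traf3ip3 was lower without overlap and not called (log2 fold change -0.80, edgeR adjusted p = 0.343). The B cell covariate fit called Nfkbiz higher and Traf3ip3 lower. Leaving out wild-type replicate 1, edgeR also called Rel and Otud7b higher and Nfkbid lower. These genes, too, are named after their values were seen. Relb, the partner of p52, was at 300.1 ± 18.7 and 298.0 ± 21.2 CPM (SD, n = 3 each).

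**Figure D5:**
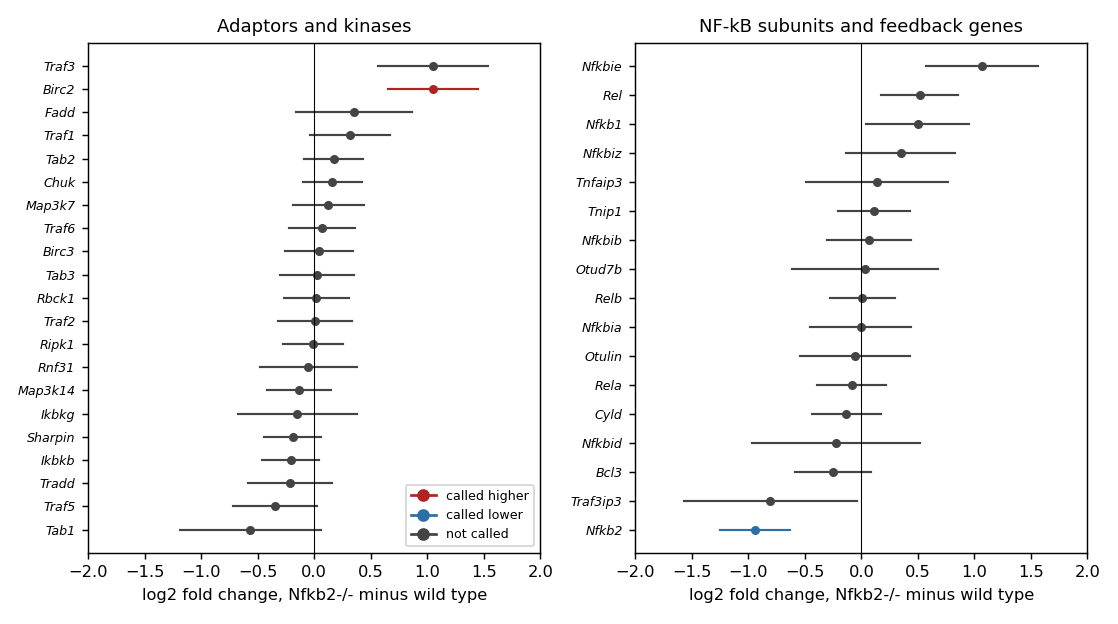
Log2 fold changes with 95% intervals of 21 adaptor and kinase genes (left) and 17 NF-kB subunit and feedback genes (right), Nfkb2-/- minus wild type. Birc2 is called higher and Nfkb2 lower. Without passing the adjusted test, Traf3, Nfkbie, Rel and Nfkb1 have intervals above 0 and Traf3ip3 has an interval below 0.

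Of 18 other genes of the TNF receptor family 12 were tested and 0 were called in either direction by edgeR adjusted p, against 1.42% of all genes tested. The unadjusted edgeR p was under 0.05 for 3, against 13.6% of all genes tested. DESeq2 called 3, beside 399 of all genes higher and 235 lower. The median log2 fold change of the 12 was -0.18. The smallest p-values were those of Tnfrsf13c and Fas. Tnfrsf13c, the BAFF receptor of B cells, averaged 1.28 ± 0.464 CPM in Nfkb2-/- against 6.23 ± 3.23 CPM (SD, n = 3 each). Its log2 fold change was -2.26 (edgeR adjusted p = 0.082, 0.0278 with the replicate block), and -0.51 with the B cell covariate (edgeR adjusted p = 0.455). Of the B cell markers 18 were tested and 18 had a negative log2 fold change. Fas, the death receptor, was at 53.8 ± 4.70 against 36.6 ± 3.82 CPM (0.55, edgeR adjusted p = 0.113, and 0.0431 in DESeq2).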

How the data were processed

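RNA of sorted splenic Tregs was sequenced in 6 libraries made with an unstranded kit, 3 per genotype. The authors deposited whole-number read counts per gene, 1 file per library, not normalized; per the submitters' processing notes HISAT2, HTSeq, FastQC and DESeq2 were used with GRCm38, with the mode of counting not given in sources used here. Of 55573 identifiers, 55480 matched GENCODE M21 (GRCm38), which gave symbols, positions and exon lengths; promoter sequences are from RefSeq (GRCm38.p6).

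The receptors, the lists and the tests were chosen with earlier results of these data known. Counts were fitted with edgeR 4.0.16 in R 4.3.3: filterByExpr (minimum count 10), TMM, a robust quasi-likelihood fit on genotype alone, and p-values adjusted by Benjamini-Hochberg over the 13347 genes, called under 0.05. SEs were the log2 fold change over the root of F, and 95% intervals used the fit's total degrees of freedom. CPM used TMM-scaled library sizes, likeness added 0.5 CPM before the logarithm, and depth ran from 12005273 to 17278521 counts.

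Named were the 10 receptors, Nfkb2, each ligand, at most 4 called genes of each list (or, with none called, those with the 2 smallest p-values), and the 3 genes most like Tnfrsf9, Tnfrsf4, Tnfrsf18 and Tnfrsf1b; predicted and clone-named genes were left out of the likeness search, and 1 gene that the rule names is not reported here.

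Both genotypes carry replicate numbers 1 to 3. Libraries with the same number deviated together from their genotype's mean (r = 0.364, 0.267 and 0.111, all above 0.1). On that ground they were treated as pairs in the replicate block setting only, the labels giving no meaning to the number. Against this pairing, r was higher (0.251) between Nfkb2-/- replicate 3 and wild-type replicate 2 than within the third pair. The fit without the block stayed the main one. On counts simulated for this comparison over 13347 genes the code recovered 2 of 62 genes set to 1.5-fold, 17 of 48 at 2-fold, 34 of 40 at 4-fold and 44 of 50 at 8-fold, and 9 of its 106 calls were false. Other settings tried were scaling by RLE or upper quartile, no filter or 1 CPM in 3 libraries, limma-voom (limma 3.58.1), DESeq2 1.42.0, the replicate block, the Y-linked or B cell marker level as a covariate, and leaving out each library. Figures used matplotlib 3.10.9.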

Additional observations from a re-analysis of the deposited data

How the results depend on the processing

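Over 15 alternatives, 119 of 135 refits of single receptors kept direction and call; Tnfrsf9 kept a log2 fold change of 1.00 to 1.21 and lost its call in 5. Direction turned for Tnfrsf25 (0.011 with the Y-linked covariate; -0.11 to 0.10 with 1 library left out), Tnfrsf1b (-0.012 to 0.32 with 1 library left out, the negative value without wild-type replicate 1) and Cd27 (0.27 with the B cell covariate); the cause was not tested. Main counts were 1 receptor higher and 0 lower, and 135 genes higher and 54 lower. Receptors called higher numbered 2 in DESeq2, 0 with the Y-linked covariate, 3 with the B cell covariate (Tnfrsf4, Tnfrsf1b and Tnfrsf9, with 1 lower, Tnfrsf14) and 0 to 2 with 1 library left out, where 0 to 1 were lower. All genes called higher and lower numbered 292 and 174 without a count filter, 399 and 235 in DESeq2, 196 and 93 with the replicate block, 6 and 1 with the Y-linked covariate, 1201 and 1500 with the B cell covariate, and 6 to 628 and 1 to 606 with 1 library left out, both highest without wild-type replicate 1. The block changed no call of a receptor. At this depth Ltbr, Cd70 and Tnfsf18 had too few counts for a test.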

Other observations

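Among family members outside the T cell costimulators, wild-type replicate 1 carried more mRNA of Tnfrsf26, Tnfrsf22 and Tnfrsf23, the last pair known as decoy receptors of TRAIL in the mouse. Tnfrsf26 was at 56.9, 29.1 and 24.6 CPM in wild-type replicates 1 to 3 and at 18.8, 17.2 and 14.2 CPM in Nfkb2-/-. Tnfrsf22 was at 41.1, 19.5 and 16.4 CPM in wild type against 18.2, 17.6 and 17.2 CPM, and Tnfrsf23 at 7.50, 2.61 and 2.52 CPM against 2.57, 2.96 and 2.20 CPM. Tnfrsf8, which encodes the activation receptor CD30, went the other way, at 1.46 CPM in wild-type replicate 1 and 14.6 to 26.7 CPM in the other 5 libraries. These genes were chosen after their values were seen. None was called in the main edgeR fit. DESeq2 and edgeR without wild-type replicate 1 called Tnfrsf26 lower. With the B cell covariate, edgeR called Tnfrsf8 higher and Tnfrsf26, Tnfrsf22 and Tnfrsf23 lower, beside 1201 of all genes higher and 1500 lower.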
